A study of Mus musculus with 24 samples.

Results

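The 35 genes described here encode the folding machinery of the endoplasmic reticulum (ER) and the unfolded protein response, the signalling system that adjusts this machinery to its load. They were chosen by name for these functions, with earlier results of these data known, and each was represented by the probe set annotated to its symbol with the highest mean over all arrays. All 35 were found among the 18193 gene symbols carried by probe sets of 1 gene, Ero1l under its present symbol Ero1a. RNA came from C2C12, an established line of mouse skeletal myoblasts that fuses into myotubes in culture, and each of 8 time points was measured on 3 Affymetrix mouse arrays, 24 in all. Cells were myoblasts at 50% confluency on Day -1 and at 90% confluency on Day 0, both in growth medium with serum, and were in reduced serum (2% in the labels) from then on, harvested after 6 hours on Day 0.25 and on Day 1, Day 2, Day 3, Day 4 and Day 5. The study's text and the labels differ on this serum concentration. Medium was changed every 2 days. All groups carry the same genotype and come from this 1 line. Density, serum, changes of medium and time in culture go together along the series and cannot be told apart. Intensities are on a linear scale on which each array was scaled to a trimmed mean of 150, and a gene was tested if its mean reached 100 at 1 or more time points.

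In background terms, proteins bound for the membrane or for secretion enter the ER through the Sec61 channel, lose their signal peptide, and are folded there by chaperones and by enzymes that form disulfide bonds. Proteins that fail to fold are pulled back to the cytosol and degraded. Unfolded protein activates 3 membrane sensors. Atf6 is cut to release a transcription factor, Ern1 (IRE1 alpha) splices the mRNA of Xbp1, and Eif2ak3 (PERK) slows translation through eIF2 alpha, whose phosphate is removed with the help of Ppp1r15a (GADD34). This response is known to be active in skeletal myoblasts as they differentiate. The arrays measured total transcript of each gene, so cleavage of Atf6, splicing of Xbp1 and phosphorylation were not measured.

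The label of the cells matched their markers. All 7 skeletal muscle markers examined reached a mean of 100, with a summed mean of at least 3981 and at most 41459 over the time points. Of the others with a probe set, none of 2 adipocyte, 3 endothelial, 3 epithelial, 3 leukocyte, 3 osteoblast and 4 plasma cell or secretory cell markers reached it, and 1 of 3 smooth muscle markers did. In these bulk samples a lower level can come from fewer cells of a type or from less RNA per cell, and these cannot be told apart. Pearson's r between arrays of 1 time point was at least 0.962 over probe sets with a mean of 100 or more. Nothing states that the 3 arrays of a time point came from separate cultures, so the spread behind each p-value may be technical.

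Transcripts of 34 of the 35 genes reached a mean of 100. The exception was Derl3, a factor of retrotranslocation, whose mean was between 2.00 and 2.04 at every time point. Sdf2l1 passed only through Day -1 and Day 0.25, its highest time points, and was not tested between Day 2 and Day 1. Over all 8 time points, 32 of the 34 genes changed (limma F test, adjusted p under 0.05), beside 88.8% of all 13735 probe sets tested. The exceptions, by the probe sets chosen, were the lectin chaperone Canx (adjusted p = 0.0658) and the ubiquitin ligase Syvn1 (adjusted p = 0.291). A dimmer probe set of Canx was lower on Day 5 than on Day -1 (log2 fold change -0.79, adjusted p = 0.00101 by limma). Another did not pass in that comparison (log2 fold change -0.02, adjusted p = 0.908). For 15 of the 34 the highest mean was at least 2-fold above the lowest, beside 44.5% of all probe sets that changed and ranged this far. The 15 were Herpud1 (6.07-fold), Ppp1r15a (5.92-fold), Atf6 (5.00-fold), Ero1l (3.56-fold), Sdf2l1, Dnajb9, Eif2ak3, Sel1l, Edem1, Sec61a1, Sec61b, Derl1, Sec11c, Dnajc3 and Ssr1 (2.01-fold). The highest mean lay on Day 0.25 for 18 of the 34 genes, among them Canx, which did not pass the F test, and Sdf2l1. Day 0 held the highest of 5 more, Day 5 that of 4 and Day 3 that of 3. No such count is given for all probe sets, so these numbers have nothing to be set against.

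**Figure D1:**
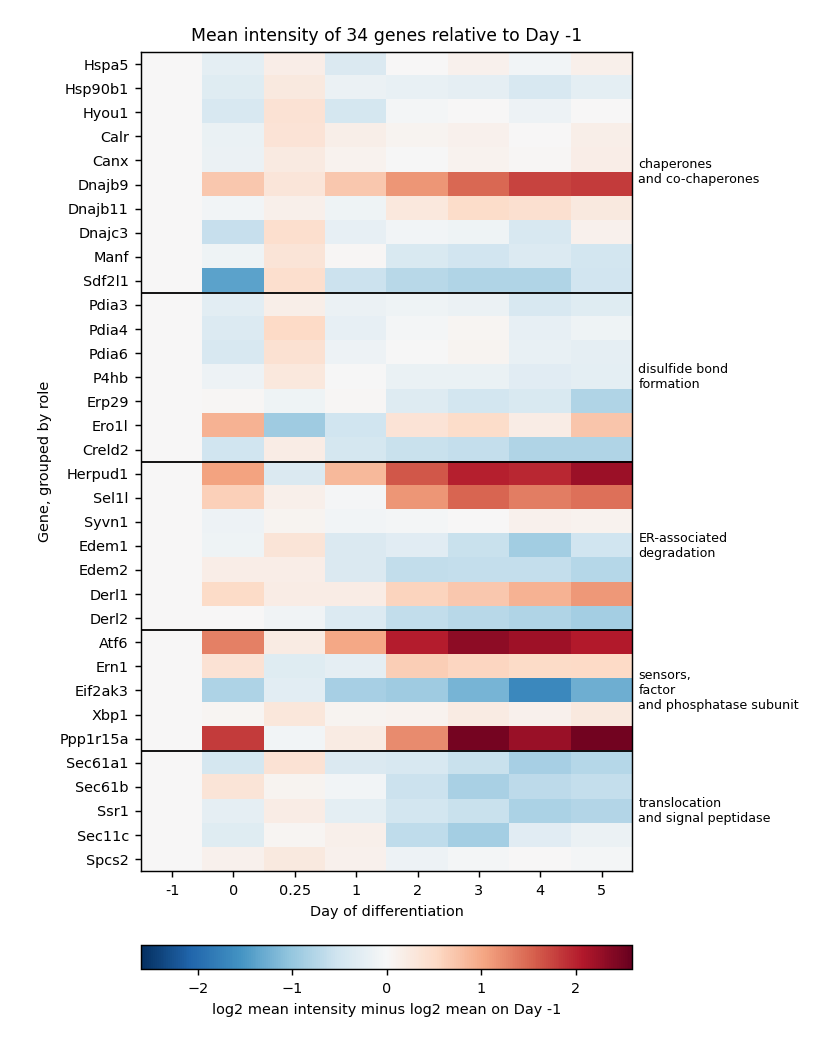
Mean intensity of each of the 34 genes at the 8 time points, as the log2 mean minus the log2 mean on Day -1 (colour), with genes in rows grouped by role and days in columns. Most chaperone and disulfide rows are blue on Day 0 and red on Day 0.25, whereas Herpud1, Atf6, Ppp1r15a, Dnajb9 and Sel1l are red on Day 0 and from Day 2 onward.

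Set side by side, the intervals differed in how many of the genes moved. On Day 0 relative to Day -1, 7 of 34 were higher and 11 lower, beside 45.1% of all probe sets called, 23.3% higher and 21.7% lower. On Day 0.25 relative to Day 0, 17 were higher and 8 lower, beside 43.3% called, 22.4% higher and 20.9% lower, and the genes had a median change of 0.38 on the log2 scale, against 0.03 for all probe sets. Without Sdf2l1, 16 of 33 were higher and 8 lower on Day 0.25, and 7 were higher and 10 lower on Day 0 relative to Day -1. The 2 comparisons share the Day 0 arrays. On Day 1 relative to Day 0.25, 3 were higher and 16 lower, beside 26.9% called, 11.6% higher and 15.4% lower, with medians of -0.26 and -0.05. Leaving out Sdf2l1, 3 of 33 were higher and 15 lower. On Day 2 relative to Day 1, 9 of 33 were higher and 1 lower, beside 36.3% called, 19% higher and 17.3% lower. The 9 were Dnajb9, Dnajb11, Ero1l, Herpud1, Sel1l, Derl1, Atf6, Ern1 and Ppp1r15a, and the 1 was Sec11c.

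**Figure D2:**
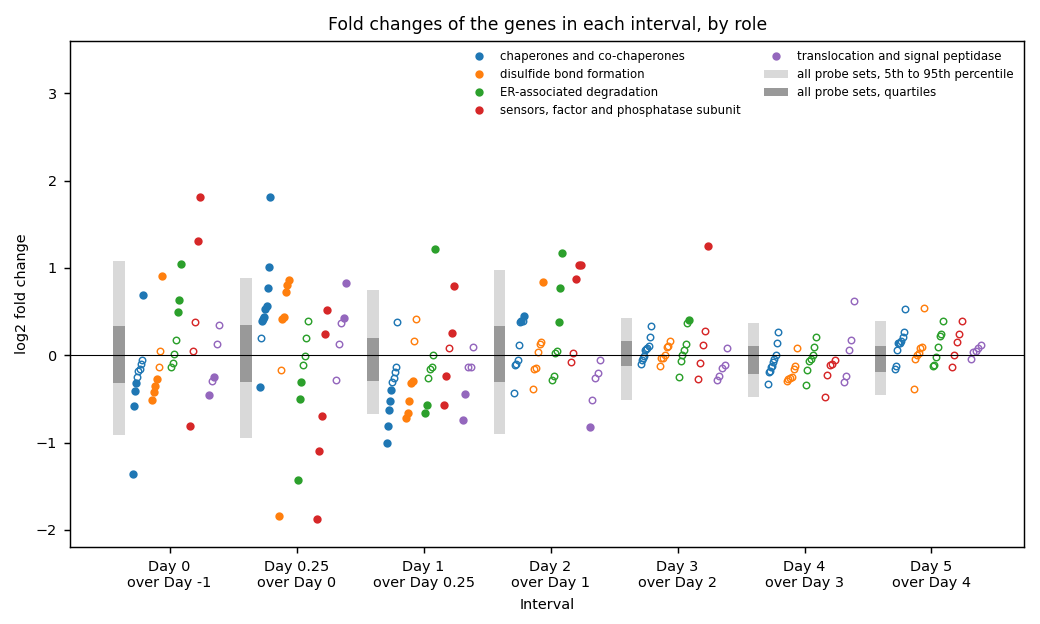
Log2 fold change (vertical axis) of each tested gene in the 7 intervals, coloured by role, filled where the adjusted p was under 0.05 and open where it was not, beside the quartiles and the 5th to 95th percentile of all probe sets tested (grey bars). On Day 0.25 over Day 0 the filled points split into 17 above 0 and 8 below, and from Day 3 onward 2 points are filled.

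Chaperones of the ER lumen were higher 6 hours after the change to reduced serum than just before it. Of 10 tested, 8 rose on Day 0.25 relative to Day 0 and 1 fell, beside 22.4% of all probe sets higher and 20.9% lower. Without Sdf2l1, which met the level of 100 only through its highest time points, 7 of 9 rose and 1 fell. Hspa5 (BiP), the Hsp70 chaperone that also holds the 3 sensors inactive, followed this course. Hspa5 measured 7089, 8671 and 8092 on Day -1, 7052, 6504 and 6407 on Day 0, 9233, 7529 and 10099 on Day 0.25 and 6176, 5748 and 6584 on Day 1. Later values were 8666, 6749.8 and 8773 on Day 2, 8647, 8353 and 8779 on Day 3, 7033, 8349 and 7309 on Day 4 and 9230.5, 8795 and 8077 on Day 5. All 3 arrays of Day 0.25 lay above all 3 of Day 0 and of Day 1. The mean was 8954 ± 1308 on Day 0.25 and 6654 ± 347 on Day 0 (SD, n = 3 each), a rise of 1.34-fold (log2 fold change 0.42 ± 0.12, adjusted p = 0.00787). Here and below, ± after a log2 fold change is the SE of limma's fit, and after a mean the SD of 3 arrays. Without Day 0.25 replicate 3, the brightest of its group, the adjusted p was 0.0567. On Day 1 Hspa5 fell relative to Day 0.25 (log2 fold change -0.53 ± 0.12, adjusted p = 0.00267). Between Day 2 and Day 1 its difference missed the threshold (log2 fold change 0.38 ± 0.13, adjusted p = 0.06), although the arrays of the 2 days did not overlap.

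The other chaperones that rose on Day 0.25 relative to Day 0 were Hsp90b1 (GRP94, the ER form of Hsp90), Hyou1 (the exchange factor of BiP), the lectins Calr and Canx, Dnajc3 (a co-chaperone of BiP), Manf and Sdf2l1. Dnajc3 gave 439, 630.4 and 516 on Day -1, 405, 315 and 334 on Day 0, 751, 578 and 806 on Day 0.25 and 444, 462 and 462 on Day 1. From then on the arrays gave 561, 385 and 559 on Day 2, 457, 549 and 468 on Day 3, 376, 469 and 339 on Day 4 and 551, 702 and 467 on Day 5. Dnajc3 was 2.02-fold higher on Day 0.25 than on Day 0 (log2 fold change 1.01 ± 0.18, adjusted p = 0.000202), and its 3 arrays lay above those of Day 0. Sdf2l1 had intensities of 105, 74.3 and 122 on Day -1, 40.5, 36.3 and 38.6 on Day 0, 127, 159 and 121 on Day 0.25 and 79.8, 71.2 and 53.2 on Day 1. It measured 51.0, 75.3 and 57.2 on Day 2, 70.9, 58.0 and 47.7 on Day 3, 68.4, 50.6 and 57.2 on Day 4 and 60.1, 67.3 and 85.8 on Day 5. Sdf2l1 works in a complex with the co-chaperone Dnajb11. Its arrays of Day 0 lay below those of Day -1, Day 0.25 and Day 1, and since only its high time points brought it into the test, its fold changes are not given. The other 5 rises lay between 0.39 (Canx) and 0.77 (Hyou1) on the log2 scale. The rise of Manf, a small protein retained in the ER, ended when any 1 of 5 arrays was left out, with adjusted p between 0.0508 and 0.0877.

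Dnajb9 (ERdj4), a co-chaperone of BiP that also keeps Ern1 inactive, took another course. Dnajb9 measured 326, 288 and 342 on Day -1, 607, 472 and 473 on Day 0, 386, 442 and 369 on Day 0.25 and 454, 571 and 532 on Day 1. Later values were 696, 787 and 643 on Day 2, 1047, 757 and 888 on Day 3, 1074, 937 and 1205 on Day 4 and 982, 1068 and 1315 on Day 5. It was higher on Day 0 than on Day -1 (log2 fold change 0.69 ± 0.15, adjusted p = 0.000758), and all its arrays from Day 2 onward lay above all arrays of Day -1, Day 0, Day 0.25 and Day 1. Over the whole course it was 3.50-fold higher on Day 5 than on Day -1 (log2 fold change 1.81 ± 0.15, adjusted p = 9.91e-10). It fell on Day 0.25 relative to Day 0 (log2 fold change -0.37 ± 0.15, adjusted p = 0.0475), a call that ended when any 1 of 5 arrays was left out (adjusted p between 0.0516 and 0.213). Its rise on Day 2 relative to Day 1 ended when any 1 of 4 arrays was left out (adjusted p between 0.0579 and 0.131).

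Of the promoter windows in the RefSeq table, which run from 250 bases before to 50 after a gene's start on build GRCm38.p6, 28 of the 35 genes had 1. The sequence known as the ER stress response element, CCAAT and CCACG separated by 9 bases, was searched on both strands. It was found in 9 of the 28 genes, 32.1%, beside 37 of 27025 genes in the table, 0.137%. The genes were chosen by name for the unfolded protein response, so these shares describe the choice and are not a test. The holders were Calr, Canx, Creld2, Derl3, Dnajc3, Hsp90b1, Hspa5, Pdia6 and Syvn1. A second form, ATTGG and CCACG separated by 1 base, was found in Dnajb11 and Herpud1, 7.14% of the 28 beside 0.0444% of all. TGACGTGG, a site of ATF6 and XBP1, was found in 0 of the 28, beside 0.714% of all genes. CCAAT by itself was in 75% of the 28 and 41.1% of all, and CCACG, which overlaps each full element, was in 85.7% and 35.5%. The stretches below are shown because their holders include genes that rose on Day 0.25 relative to Day 0 and 2 that did not, Syvn1 and Herpud1. Each is written 5′ to 3′ on the strand of the gene, upstream of its start, with the matched element and the bases within it in capitals.
Hspa5: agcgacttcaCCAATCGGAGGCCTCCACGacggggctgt
Dnajc3: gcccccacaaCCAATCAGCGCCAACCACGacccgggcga
Hsp90b1: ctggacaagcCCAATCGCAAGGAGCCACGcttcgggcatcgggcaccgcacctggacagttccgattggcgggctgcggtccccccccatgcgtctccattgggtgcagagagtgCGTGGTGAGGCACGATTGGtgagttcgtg
Calr: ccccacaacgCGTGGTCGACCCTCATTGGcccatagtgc
Pdia6: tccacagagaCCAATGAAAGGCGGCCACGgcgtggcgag
Creld2: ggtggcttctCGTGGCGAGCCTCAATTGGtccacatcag
Syvn1: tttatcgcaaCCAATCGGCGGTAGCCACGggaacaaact
Herpud1: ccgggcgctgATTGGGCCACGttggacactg
These lie at chr2:34772015-34772053 (plus strand, Hspa5), chr14:118937817-118937855 (plus strand, Dnajc3), chr10:86705523-86705666 (minus strand, Hsp90b1), chr8:84847065-84847103 (minus strand, Calr), chr12:17266481-17266519 (plus strand, Pdia6), chr15:88819510-88819548 (plus strand, Creld2), chr19:6046522-6046560 (plus strand, Syvn1) and chr8:94386367-94386397 (plus strand, Herpud1). Hsp90b1 holds 2 matches on opposite strands.

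Of the 8 tested holders of the first form, 7 rose and none fell on Day 0.25 relative to Day 0, with a median of 0.54 on the log2 scale, and Syvn1 stood at 0.20 (adjusted p = 0.129). On Day 0 relative to Day -1 none of the 8 rose and 4 fell, and on Day 1 relative to Day 0.25 none rose and 5 fell. All probe sets were called higher and lower in shares of 22.4% and 20.9% on Day 0.25. These shares were 23.3% and 21.7% on Day 0, and 11.6% and 15.4% on Day 1. On Day 2 relative to Day 1 none of the 8 passed, with a range of -0.14 to 0.38, beside 36.3% of all probe sets called. Of 17 tested genes with a window and neither form, 7 rose and 5 fell on Day 0.25. Sdf2l1, which was tested only through its highest time points, is counted among the 7. Pdia4 was another of them, so the element was not held by every gene that rose. The holders were not tested against the other genes. The first-form holders that rose on Day 0.25 belong to the chaperone and disulfide groups, which are also counted by role. These are therefore not separate counts. Herpud1, with the second form, fell on Day 0.25, and Dnajb11, with the second form downstream of its start, stood at 0.20 (adjusted p = 0.0963).

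**Figure D3:**
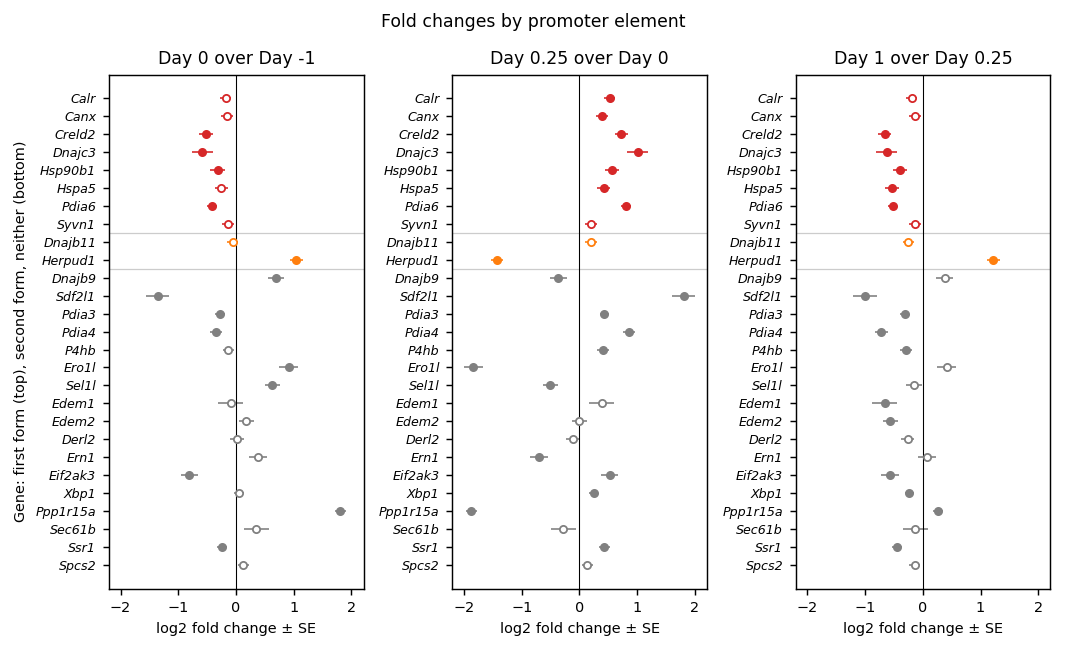
Log2 fold change ± SE of the 27 tested genes that have a promoter window, for the first 3 intervals, with holders of the first element form at the top (red), of the second form below (orange) and of neither at the bottom (grey). Filled points passed an adjusted p of 0.05, and in the middle panel 7 of the 8 red points are filled and all 8 lie right of 0.

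Most enzymes of disulfide bond formation were higher on Day 0.25 than on Day 0. Of 7 tested, 5 rose on Day 0.25 relative to Day 0: Pdia3, which works with the 2 lectin chaperones, Pdia4, Pdia6, the classical isomerase P4hb, and Creld2. In this interval 1 of the 7 fell, and 22.4% of all probe sets were higher and 20.9% lower. Pdia6 averaged 1969 ± 134 on Day 0.25 and 1127 ± 56.2 on Day 0 (SD, n = 3 each, log2 fold change 0.80 ± 0.08, adjusted p = 4.05e-07), and Pdia4 averaged 617 ± 81.8 on Day 0.25 and 339 ± 34.0 on Day 0 (SD, n = 3 each, log2 fold change 0.86 ± 0.11, adjusted p = 5.67e-06). On Day 1 relative to Day 0.25, where 15.4% of all probe sets were lower, all 5 fell again. The falls were 0.30 (P4hb) to 0.72 (Pdia4) on the log2 scale. Of these falls, that of Pdia3 ended without Day 0.25 replicate 3 (adjusted p = 0.0526) and that of P4hb when any 1 of 4 arrays was left out (adjusted p between 0.0751 and 0.118). Erp29, a relative of the isomerases without their active site, was lower on Day 5 than on Day -1 (log2 fold change -0.78 ± 0.18, adjusted p = 0.000827).

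Ero1l, the oxidase that passes electrons from the isomerases to oxygen and so keeps them active, fell instead. Ero1l gave 351, 460.3 and 407 on Day -1, 789, 760.2 and 729.8 on Day 0, 231, 193 and 216 on Day 0.25 and 264, 263 and 327 on Day 1. From then on the arrays gave 508, 378 and 667 on Day 2, 556, 572 and 563 on Day 3, 381, 572 and 446 on Day 4 and 665, 718 and 628 on Day 5. It was higher on Day 0 than on Day -1 (log2 fold change 0.91 ± 0.17, adjusted p = 0.000192) and then 3.57-fold lower on Day 0.25 than on Day 0 (log2 fold change -1.84 ± 0.17, adjusted p = 7.08e-08). The 3 arrays of Day 0.25 also lay below the 3 of Day -1 (log2 fold change -0.92 ± 0.17, adjusted p = 0.000517), the only difference between those 2 days that held under every alternative run. On Day 2 it rose relative to Day 1 (log2 fold change 0.83 ± 0.21, adjusted p = 0.0186). When replicate 1 or 2 of Day 1 or replicate 1 of Day 2 was left out, the adjusted p of that rise was between 0.0613 and 0.0772.

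Of 7 tested genes of ER-associated degradation, none rose and 3 fell on Day 0.25 relative to Day 0. The shares of all probe sets were 22.4% higher and 20.9% lower. Herpud1, a membrane protein that gathers the ubiquitin ligase complex, had the widest range of the 34 genes. Herpud1 had intensities of 554, 631 and 539 on Day -1, 1152, 1192 and 1211 on Day 0, 412, 445 and 465 on Day 0.25 and 979, 893 and 1236 on Day 1. It measured 1836, 1635 and 1784 on Day 2, 2123, 2352 and 2497 on Day 3, 2251, 2244 and 2245 on Day 4 and 2951, 2765 and 2307 on Day 5. No array of Day 0.25 reached the lowest of Day 0, and the arrays of the last 4 days all lay above those of the first 4 time points. It rose on Day 0 relative to Day -1 (log2 fold change 1.05 ± 0.11, adjusted p = 4.53e-07) and fell 2.69-fold on Day 0.25 relative to Day 0 (log2 fold change -1.43 ± 0.11, adjusted p = 1.02e-08). It then rose on Day 1 relative to Day 0.25 (log2 fold change 1.22 ± 0.11, adjusted p = 2.03e-07) and again on Day 2 relative to Day 1 (log2 fold change 0.77 ± 0.14, adjusted p = 0.00573). It averaged 2675 ± 331 on Day 5 and 575 ± 49.5 on Day -1 (SD, n = 3 each), 4.64-fold higher (log2 fold change 2.21 ± 0.11, adjusted p = 9.81e-13).

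Sel1l, the adaptor of the ligase Syvn1, and Derl1, a channel component, also fell on Day 0.25 and rose later by the probe sets chosen. Sel1l measured 323, 417 and 351 on Day -1, 580.3, 573 and 524 on Day 0, 389.7, 335 and 467 on Day 0.25 and 342, 347 and 373 on Day 1. Later values were 868, 689.6 and 847 on Day 2, 924, 1129.9 and 1049 on Day 3, 924, 959.6 and 863 on Day 4 and 1008, 1108 and 826 on Day 5. The largest step of Sel1l was on Day 2 relative to Day 1, 2.25-fold (log2 fold change 1.17 ± 0.12, adjusted p = 0.000819), with no overlap of arrays. On Day 0.25 relative to Day 0 the chosen probe set fell (log2 fold change -0.50 ± 0.13, adjusted p = 0.00506), but none of its 4 other tested probe sets passed. These stood at 0.13, 0.06, 0.02 and -0.46 on the log2 scale. Derl1 gave 1309, 1538 and 1405 on Day -1, 2172, 1909 and 1929.7 on Day 0, 1677, 1444 and 1752 on Day 0.25 and 1537, 1539 and 1788 on Day 1. From then on the arrays gave 2175, 1963 and 2199 on Day 2, 2445, 2159 and 2326 on Day 3, 2509, 2811 and 2672 on Day 4 and 3133, 3189 and 2983 on Day 5. Derl1 was 2.19-fold higher on Day 5 than on Day -1 (log2 fold change 1.13 ± 0.10, adjusted p = 1.86e-09), and its arrays of Day 5 lay above all others of the series. By this probe set, its fall on Day 0.25 relative to Day 0 ended without Day 0 replicate 1 (adjusted p = 0.0716) or Day 0.25 replicate 2 (adjusted p = 0.0725). Its rise on Day 2 ended when any 1 of 4 arrays was left out (adjusted p between 0.0963 and 0.132). The other tested probe sets of Derl1, all dimmer, also fell on Day 0.25, by -0.61, -0.66 and -0.77 (adjusted p at most 1.62e-05). On Day 2 relative to Day 1 they rose by 0.44, 0.45 and 0.70 (adjusted p = 0.0186, 0.0192 and 0.00553). Arrays were left out for the chosen probe set only. Syvn1 itself stayed between means of 452 and 534.

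Edem1 and Edem2, which act on the sugar chains of proteins sent for degradation, were lower at the end. Edem1 had intensities of 348, 473 and 405 on Day -1, 399.6, 373 and 368 on Day 0, 579, 332 and 639 on Day 0.25 and 312, 294 and 337 on Day 1. It measured 342, 239.8 and 413 on Day 2, 254, 306 and 261 on Day 3, 201, 276 and 180.4 on Day 4 and 289.6, 319.7 and 247 on Day 5. The 3 arrays of Day 0.25 for Edem1 were far apart, with replicate 2 below all 3 of Day 0, and its difference from Day 0 missed the threshold (log2 fold change 0.39 ± 0.22, adjusted p = 0.152). Without that array it passed (log2 fold change 0.68, adjusted p = 0.0092). Its falls on Day 1 relative to Day 0.25 and on Day 5 relative to Day -1 each ended when 1 array was left out, for 5 and 4 different arrays. Edem2 averaged 124 ± 6.7 on Day 5 and 209 ± 26.8 on Day -1 (SD, n = 3 each, log2 fold change -0.74 ± 0.13, adjusted p = 4.17e-05). Derl2 was also lower on Day 5 than on Day -1 by its most intense probe set (log2 fold change -0.89 ± 0.11, adjusted p = 9.13e-07), but a dimmer probe set of the gene was higher.

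The sensors and their partners did not move as 1 group. Of 5 tested, 2 rose and 3 fell on Day 0.25 relative to Day 0, and 3 rose on Day 2 relative to Day 1. The shares of all probe sets were 22.4% higher and 20.9% lower on Day 0.25, and 19% higher on Day 2. Atf6 had the third widest range of the 34 genes. Atf6 measured 205, 208 and 174 on Day -1, 444, 538 and 469 on Day 0, 221, 209 and 250.2 on Day 0.25 and 394, 352 and 433 on Day 1. Later values were 899, 751 and 761 on Day 2, 822, 1079 and 1036 on Day 3, 823, 915 and 964 on Day 4 and 852, 873 and 743 on Day 5. Arrays of Day -1 and Day 0.25 were low, those of Day 0 and Day 1 intermediate, and those of Day 2 onward all above the rest. It rose on Day 0 relative to Day -1 (log2 fold change 1.30 ± 0.12, adjusted p = 9.18e-08) and fell on Day 0.25 relative to Day 0 (log2 fold change -1.09 ± 0.12, adjusted p = 1.23e-06). It rose again on Day 1 relative to Day 0.25 (log2 fold change 0.79 ± 0.12, adjusted p = 0.000113) and on Day 2 relative to Day 1 (log2 fold change 1.03 ± 0.13, adjusted p = 0.00131). On Day 5 it was 4.20-fold higher than on Day -1 (log2 fold change 2.07 ± 0.12, adjusted p = 1.03e-11). Its 2 other tested probe sets, both dimmer, did not pass on Day 1 relative to Day 0.25 (0.12 and 0.38, adjusted p = 0.711 and 0.116). The first of them also missed the threshold on Day 2 relative to Day 1 (0.57, adjusted p = 0.0897). Both were higher on Day 5 than on Day -1, by 0.94 and 1.37 on the log2 scale.

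Eif2ak3 ran the other way. Eif2ak3 gave 333, 376 and 324 on Day -1, 216, 183 and 192 on Day 0, 272, 261 and 316 on Day 0.25 and 203, 185 and 181 on Day 1. From then on the arrays gave 191, 153 and 201 on Day 2, 145, 172 and 133 on Day 3, 104, 130.2 and 90.6 on Day 4 and 152, 163 and 112 on Day 5. The arrays of Day -1 were above all others, and those of Day 4 were the dimmest as a group. It fell on Day 0 relative to Day -1 (log2 fold change -0.81 ± 0.15, adjusted p = 0.000261), and was 2.44-fold lower on Day 5 than on Day -1 (log2 fold change -1.29 ± 0.15, adjusted p = 2.53e-07). Like most of the chaperones it was higher on Day 0.25 than on Day 0 (log2 fold change 0.52 ± 0.15, adjusted p = 0.00945), although without Day 0.25 replicate 3 the adjusted p was 0.0537. On Day 1 it was lower again than on Day 0.25 (log2 fold change -0.57 ± 0.15, adjusted p = 0.00882).

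Ern1 rose with Atf6 on Day 2. Ern1 had intensities of 361, 415 and 328 on Day -1, 523, 460.3 and 449.5 on Day 0, 309, 244 and 337 on Day 0.25 and 317, 279 and 341 on Day 1. It measured 643, 471 and 617 on Day 2, 531, 577 and 513 on Day 3, 498, 581 and 489 on Day 4 and 647, 526 and 416 on Day 5. All arrays of Day 2 lay above those of Day 1 (log2 fold change 0.88 ± 0.15, adjusted p = 0.00434), and all arrays of Day 0.25 below those of Day 0 (log2 fold change -0.70 ± 0.16, adjusted p = 0.00154). Its rise on Day 5 relative to Day -1 (log2 fold change 0.51 ± 0.16, adjusted p = 0.00687) ended without Day 5 replicate 1 (adjusted p = 0.0578). Xbp1 varied least of the 5. Xbp1 measured 2146, 2331 and 2471 on Day -1, 2484, 2325 and 2386 on Day 0, 3039, 2706 and 2813 on Day 0.25 and 2274, 2416 and 2570.1 on Day 1. Later values were 2482, 2443 and 2455 on Day 2, 2748, 2668 and 2610.3 on Day 3, 2572, 2603 and 2324 on Day 4 and 2952, 2581 and 2793 on Day 5. The arrays of Day 0.25 were above all those of the other first 4 time points. Its rise on Day 0.25 relative to Day 0 was 1.19-fold (log2 fold change 0.25 ± 0.08, adjusted p = 0.0168) and ended without Day 0 replicate 2 (adjusted p = 0.0617) or Day 0.25 replicate 1 (adjusted p = 0.0879). Of its 2 other tested probe sets, 1 passed in this interval (0.24, adjusted p = 0.0457) and 1 did not (0.02, adjusted p = 0.82). It was also higher on Day 5 than on Day -1 (log2 fold change 0.26 ± 0.08, adjusted p = 0.00651), but not when fitted on those 6 arrays alone (adjusted p = 0.103).

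Ppp1r15a, the subunit that brings the phosphatase to eIF2 alpha, had the largest log2 fold changes of the 34 genes in the first 2 intervals. Ppp1r15a gave 152, 155 and 153 on Day -1, 505, 556 and 555 on Day 0, 152, 145 and 144 on Day 0.25 and 157, 173 and 201 on Day 1. From then on the arrays gave 358, 376 and 350.2 on Day 2, 788, 899 and 893 on Day 3, 739.8, 695 and 762 on Day 4 and 889, 791 and 929 on Day 5. Arrays of Day -1 and Day 0.25 were low, those of Day 0 all above them, and those of Day 3, Day 4 and Day 5 above all others. It was 3.50-fold higher on Day 0 than on Day -1 (log2 fold change 1.81 ± 0.09, adjusted p = 5.99e-12) and 3.66-fold lower on Day 0.25 than on Day 0 (log2 fold change -1.87 ± 0.09, adjusted p = 9.83e-12). It rose on Day 2 relative to Day 1 (log2 fold change 1.04 ± 0.12, adjusted p = 0.00113) and once more on Day 3 relative to Day 2 (log2 fold change 1.25 ± 0.09, adjusted p = 2.26e-07). It averaged 870.0 ± 71.0 on Day 5 and 154 ± 1.65 on Day -1 (SD, n = 3 each), 5.65-fold higher (log2 fold change 2.50 ± 0.09, adjusted p = 6.07e-15).

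**Figure D4:**
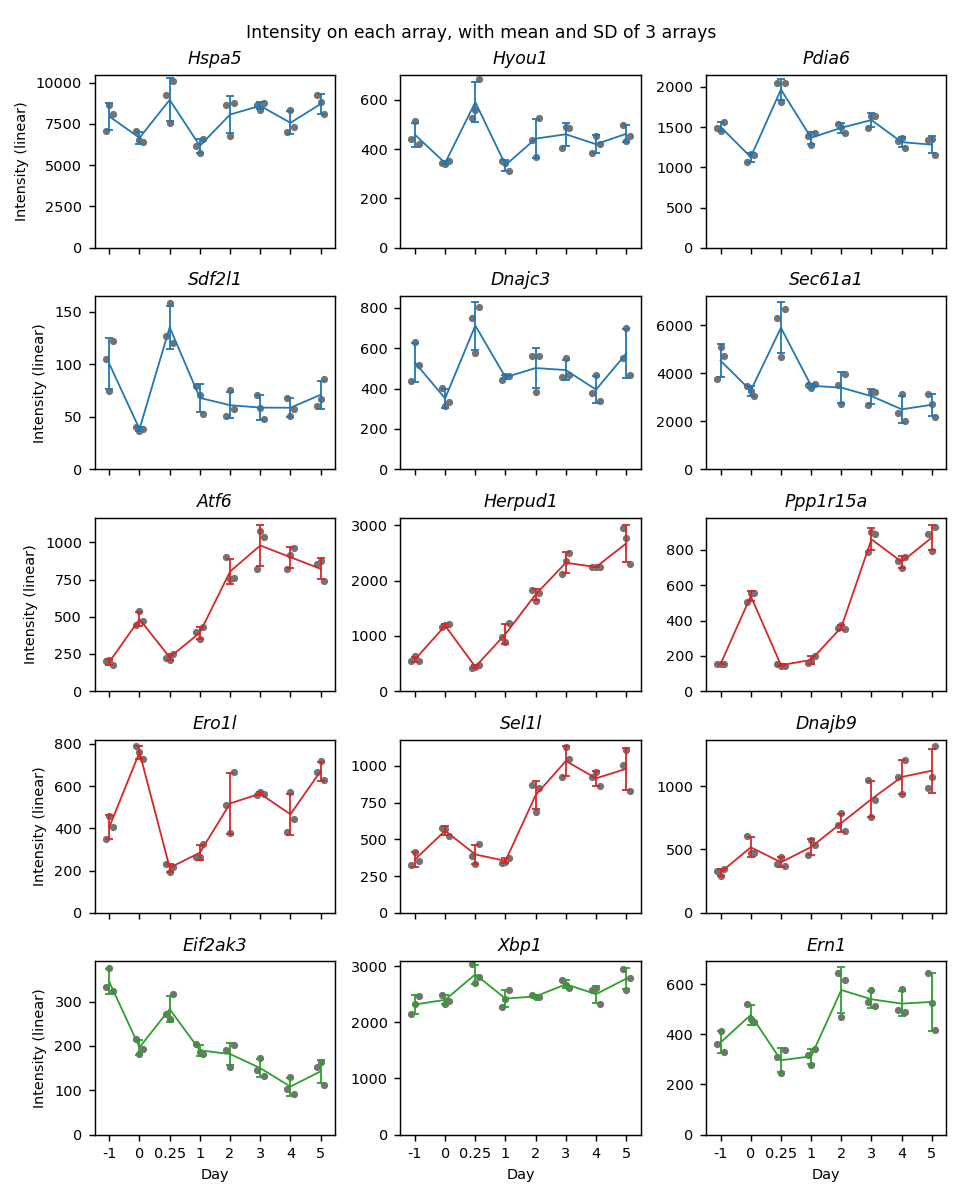
Linear intensity (vertical axis, from 0) of 15 genes on each array (grey points) at the 8 time points, with the mean and SD of 3 arrays (lines and bars). The 6 genes in blue have their highest mean on Day 0.25, the 6 in red dip on Day 0.25 below Day 0, and Eif2ak3, Xbp1 and Ern1 are drawn in green.

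Of the 5 translocation and signal peptidase genes, 2 rose on Day 0.25 relative to Day 0: Sec61a1, the pore of the channel, and Ssr1, a subunit of the complex that sits beside it. None of the 5 fell, and 22.4% of all probe sets were higher and 20.9% lower. Sec61a1 had intensities of 3773, 5093 and 4700.3 on Day -1, 3484, 3281 and 3074 on Day 0, 6316, 4688 and 6680.4 on Day 0.25 and 3518, 3378 and 3552 on Day 1. It measured 3517, 2721 and 3969 on Day 2, 2688, 3229 and 3229 on Day 3, 2351, 3122 and 2032 on Day 4 and 3131, 2743 and 2201 on Day 5. The arrays of Day 0.25 for Sec61a1 were above those of Day 0 and Day 1. It was 1.78-fold higher on Day 0.25 than on Day 0 (log2 fold change 0.83 ± 0.17, adjusted p = 0.000922), lower on Day 1 than on Day 0.25 (log2 fold change -0.74 ± 0.17, adjusted p = 0.00393) and lower on Day 5 than on Day -1 (log2 fold change -0.75 ± 0.17, adjusted p = 0.000761). Ssr1 measured 2355, 2551 and 2537 on Day -1, 2045, 2037 and 2206 on Day 0, 3151, 2629 and 2712 on Day 0.25 and 2017, 2082 and 2106 on Day 1. Later values were 1842, 1628 and 1914 on Day 2, 1567, 1613 and 1782 on Day 3, 1384, 1526 and 1304 on Day 4 and 1516, 1538 and 1305 on Day 5. For Ssr1 all arrays of Day 2 onward lay below all those of the earlier time points (log2 fold change -0.77 ± 0.09, adjusted p = 3.88e-07 for Day 5 over Day -1).

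Sec61b, a small subunit of the same channel, and Sec11c, a catalytic subunit of the signal peptidase, had their highest means on Day 0 and Day 1. Sec61b gave 3597, 2631 and 3393 on Day -1, 3878, 4255 and 4017 on Day 0, 3077, 4027 and 2980.5 on Day 0.25 and 3467, 3221 and 2522 on Day 1. From then on the arrays gave 1710.5, 2855 and 1994 on Day 2, 2079, 1925 and 1340.2 on Day 3, 2512, 1793 and 1717 on Day 4 and 1705, 1883 and 2635 on Day 5. Sec61b was lower on Day 5 than on Day -1 (log2 fold change -0.64 ± 0.22, adjusted p = 0.0124), with overlapping arrays, and the call ended without Day -1 replicate 1 (adjusted p = 0.0529) or Day 5 replicate 1 (adjusted p = 0.0647). Sec11c had intensities of 601, 381 and 576 on Day -1, 366, 426 and 453 on Day 0, 476, 678 and 471 on Day 0.25 and 564, 611 and 540.5 on Day 1. It measured 293, 397 and 293 on Day 2, 356, 251 and 234 on Day 3, 476, 376 and 424 on Day 4 and 314, 430.2 and 661 on Day 5. Sec11c fell on Day 2 relative to Day 1 (log2 fold change -0.82 ± 0.15, adjusted p = 0.00504), and its 3 arrays of Day 2 lay below those of Day 1. Spcs2, another subunit of the peptidase, had means between 1420.5 and 1858.

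Few genes passed at later steps. On Day 3 relative to Day 2, Ppp1r15a and Herpud1 were higher and none was lower, beside 6.2% called, 3.23% higher and 2.96% lower. None of 34 passed on Day 4 relative to Day 3 or on Day 5 relative to Day 4 by limma, beside 1.14% and 3.49% of all probe sets. At an unadjusted limma p under 0.05 the counts were 8 and 7. No share of all probe sets is given at that threshold, so these counts cannot be set against the 1.14% and 3.49%. On Day 5 relative to Day 2, 4 were higher (Dnajb9, Herpud1, Derl1 and Ppp1r15a) and 2 lower (Pdia6 and Ssr1), beside 34.8% called, 13.7% higher and 21.1% lower. The 2 falls ended when replicate 1 or 3 of Day 2 or replicate 3 of Day 5 was left out, and that of Pdia6 also without Day 2 replicate 2, with adjusted p between 0.0511 and 0.206. The rise of Herpud1 on Day 3 ended when any 1 of 5 arrays was left out (adjusted p between 0.059 and 0.163).

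Against the starting culture, 6 of 34 genes differed after 6 hours in reduced serum. On Day 0.25 relative to Day -1, Calr, Pdia4, Pdia6 and Xbp1 were higher and Ero1l and Herpud1 lower, beside 17.2% called, 10.5% higher and 6.63% lower. Fitted on these 6 arrays alone, Ero1l was the 1 gene that passed. The call of Herpud1 ended without Day -1 replicate 2 or Day 0.25 replicate 1 (adjusted p between 0.0944 and 0.101), and that of Xbp1 without Day -1 replicate 1 or Day 0.25 replicate 1 (adjusted p between 0.0707 and 0.0769). On Day 5 relative to Day -1, 10 genes were higher and 14 lower, 70.6% of the 34, beside 70.3% of all probe sets, 31.9% higher and 38.4% lower. Leaving out Sdf2l1, 10 of 33 were higher and 13 lower. The 10 were Ppp1r15a, Herpud1, Atf6, Dnajb9, Sel1l, Derl1, Ero1l, Ern1, Dnajb11 and Xbp1. The 14 were Manf, Sdf2l1, Pdia3, Pdia6, P4hb, Erp29, Creld2, Edem1, Edem2, Derl2, Eif2ak3, Sec61a1, Sec61b and Ssr1. Beside those given above, single arrays ended the calls of Dnajb11 and Sdf2l1 (any of 4), P4hb (any of 3), Pdia6 (Day -1 replicate 3 or Day 5 replicate 3) and Manf (Day 5 replicate 2), with adjusted p between 0.0541 and 0.191. Fitted on the 6 arrays of both days alone, Dnajb11, Sdf2l1, Pdia3, Pdia6, P4hb and Xbp1 did not pass (adjusted p between 0.0553 and 0.138). For Ero1l, another probe set almost as intense did not pass on all arrays (log2 fold change 0.08, adjusted p = 0.635). A dimmer one did (log2 fold change 0.57, adjusted p = 0.0414).

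Single arrays bore on some counts. Without Day -1 replicate 2, 13 genes in place of 18 were called on Day 0 relative to Day -1, the lowest count, and Dnajc3, Hsp90b1, Hyou1, Pdia4, Sec61a1 and Ssr1 no longer passed (adjusted p between 0.0516 and 0.161). Each of the 3 arrays of Day 0 and Day -1 replicate 3 also ended 2 to 5 of these calls. On Day 1 relative to Day 0.25 the count was 12 in place of 19 without Day 0.25 replicate 3, and Dnajc3, Edem1, Hsp90b1, P4hb, Pdia3, Ppp1r15a and Xbp1 no longer passed (adjusted p between 0.0526 and 0.158). On Day 2 relative to Day 1 it was 6 without Day 1 replicate 1 or Day 1 replicate 2, and 18 without Day 2 replicate 2. In that last setting 12 were higher and 6 lower, in place of 9 and 1, and the split was 11 and 5 with the probe set of highest absolute t and 10 and 3 with the replicate number as a block. Dnajb11, which had risen, no longer passed when any 1 of 4 arrays was left out (adjusted p between 0.058 and 0.101).

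A list of genes named for the branch of Eif2ak3 and Atf4 was counted beside the members. It also holds Atf4 itself and Eif2s1 (eIF2 alpha), so not every gene on it is downstream of Atf4. Activity of Eif2ak3 was not measured. Of 11 tested, 9 rose and none fell on Day 0 relative to Day -1, beside 23.3% of all probe sets higher and 21.7% lower. All 11 fell on Day 0.25 relative to Day 0, beside 20.9% lower, and 9 rose and none fell on Day 1 relative to Day 0.25, beside 11.6% higher and 15.4% lower. In the first of these intervals 1 of the 11 had a mean under 100, where values are compressed, and 8 of the other 10 rose. In the last 2 intervals such a mean was found for 3 of the 11. Of the other 8 all fell on Day 0.25 and 6 rose on Day 1. Trib3, a pseudokinase induced by Atf4, was among those under 100, and averaged 13.4 ± 1.55 on Day 0.25 and 1805 ± 121 on Day 0 (SD, n = 3 each). Sesn2, a stress-induced inhibitor of growth signalling, averaged 19.7 ± 3.33 on Day 0.25 and 181 ± 13.2 on Day 0 (SD, n = 3 each), also under 100 on Day 0.25. No fold is given for either in this interval. Trib3 rose on Day 2 relative to Day 1 (log2 fold change 0.81 ± 0.17, adjusted p = 0.0105). Ddit4, another such inhibitor, fell in that interval (log2 fold change -1.12 ± 0.16, adjusted p = 0.00212). Sesn2 had a mean under 100 on Day 1 and entered this test only through Day 2, so its fold change is not given. Ddit3 (CHOP), the factor known to switch on Ppp1r15a and Ero1l, was picked after its values were seen, so they are given with no test. It averaged 208 ± 56.6 on Day -1, 1431 ± 229 on Day 0 and 155 ± 38.8 on Day 0.25 (SD, n = 3 each). On Day 5 relative to Day -1, 8 of the 11 were higher and 1 lower, beside 31.9% and 38.4% of all probe sets. Of the 10 with both means at 100 or more, 7 were higher and 1 lower.

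Other genes of the same processes were counted as well. Of all probe sets, 22.4% were higher and 20.9% lower on Day 0.25 relative to Day 0, and 19% higher and 17.3% lower on Day 2 relative to Day 1. Of 27 further ER folding enzymes and chaperones, 9 rose and 3 fell on Day 0.25 relative to Day 0, and 7 rose and 3 fell on Day 2 relative to Day 1, or 33.3% and 11.1% on Day 0.25 and 25.9% and 11.1% on Day 2. Rcn3, a calcium-binding protein of the ER lumen (log2 fold change 1.18 ± 0.17, adjusted p = 0.00224), and Sil1, an exchange factor of BiP (log2 fold change 0.79 ± 0.11, adjusted p = 0.00207), rose on Day 2, while the isomerase Pdia5 (log2 fold change -0.52 ± 0.12, adjusted p = 0.0147) and the peroxidase Prdx4 (log2 fold change -0.67 ± 0.20, adjusted p = 0.0364) fell. Of 28 translocation and glycosylation genes, 8 rose and 3 fell on Day 0.25, and 1 rose and 2 fell on Day 2, or 28.6% and 10.7% on Day 0.25 and 3.57% and 7.14% on Day 2. The 3 were Sec62, a partner of the channel (log2 fold change 0.46 ± 0.10, adjusted p = 0.0094), Tusc3, of the glycosylation complex (log2 fold change -0.44 ± 0.10, adjusted p = 0.0117), and Ssr2 (log2 fold change -0.44 ± 0.14, adjusted p = 0.0431). Of 17 further degradation genes, 3 rose and 4 fell on Day 0.25, and 5 rose and none fell on Day 2, or 17.6% and 23.5% on Day 0.25 and 29.4% and 0% on Day 2. Among the risers were the conjugating enzyme Ube2g2 (log2 fold change 0.59 ± 0.11, adjusted p = 0.00669) and the ligase March6 (log2 fold change 0.75 ± 0.18, adjusted p = 0.0176), annotated here as Marchf6.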

How the data were processed

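C2C12 RNA of 8 time points was hybridised to 24 Affymetrix mouse arrays of 45037 probe sets. The deposited values are linear intensity per probe set: according to the methods, the authors ran GC-RMA, returned the values from log2 to a linear scale and set every array's trimmed mean to 150. The processing notes also name MAS5, without a role. Versions of these tools are not given in the sources used here. GC-RMA models probe background, so dim probe sets are compressed near 2 and small differences there carry little information. Probe sets with several genes (932) or none listed (9160) were not used for members, and 64 control probe sets were left out of the tests.

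Here log2 intensity was tested with limma 3.58.1 in R 4.3.3 and Benjamini-Hochberg adjustment over all probe sets whose mean reached 100 at 1 or more time points of the fit. Day 2 over Day 1 was fitted on its own 6 arrays (12622 probe sets), as in the methods, and every other comparison and the F test on all 24 (13735 probe sets). The threshold was an adjusted p of 0.05. An exact permutation test of 3 arrays against 3 cannot go below 0.1 (two-sided), so none was run for single genes. Array medians lay between 3.63 and 3.87, and the number of arrays limits the precision. Members and lists were chosen with earlier results of these data known. Values on every array are given for Hspa5, Xbp1, Atf6, Ern1, Eif2ak3, Ppp1r15a and each member past the F test with a 2-fold range. Of each other list up to 4 genes are named, the 2 of lowest adjusted p in each direction on Day 2 over Day 1.

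The labels number the arrays of each time point 1 to 3. The deviations of same-numbered arrays correlated between -0.77 and 0.555, and every pair was over 0.1 only for Day 4 over Day 3 (0.35, 0.319 and 0.21), where the replicate block changed no call. Alternatives were a replicate block, other arrays in the fit, other level filters, quantile normalization and a raised floor. Further ones were another probe set per gene, an intensity trend and leaving out each array. For the F test, all arrays of 1 replicate number were left out together instead. The test script was checked on simulated data.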

Additional observations from a re-analysis of the deposited data

How the results depend on the processing

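Of 110 member calls over 8 comparisons, 69 held under every alternative. Over the 10 comparisons and the F test, 129 of 150 alternative counts stayed within 1.5 times the main count. Fitting the 6 arrays alone gave 1 call each for Day 3 over Day 2 and Day 0.25 over Day -1, and ended 1 call for Day 0 over Day -1, 2 for Day 0.25 over Day 0, 4 for Day 1 over Day 0.25, 2 for Day 5 over Day 2 and 6 for Day 5 over Day -1. The replicate block, no level filter and quantile normalization each gave 1 for Day 3 over Day 2. With the probe set of highest absolute t per gene the counts were 16 for Day 2 over Day 1, 4 for Day 3 over Day 2, 10 for Day 0.25 over Day -1 and 13 for Day 5 over Day 2, a choice that favours calls by construction. It also gave the 1 reversed value, Hspa5 on Day 2 over Day 1 at -0.66 in place of 0.38, from a dim probe set.

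Leaving out 1 array at a time gave 13 to 19 calls for Day 0 over Day -1. The range was 22 to 24 for Day 0.25 over Day 0 and 12 to 19 for Day 1 over Day 0.25. It was 6 to 18 for Day 2 over Day 1 and 1 to 2 for Day 3 over Day 2. Day 4 over Day 3 and Day 5 over Day 4 each had 0 to 2. Day 0.25 over Day -1 had 5 to 9 and Day 5 over Day 2 had 4 to 7. Day 5 over Day -1 had 19 to 22. For the F test, all arrays of 1 replicate number were left out together, which gave 23 to 31. The lowest count of Day 1 over Day 0.25 came without Day 0.25 replicate 3, and 2 genes passed on Day 4 over Day 3 without Day 4 replicate 2. With 3 arrays each, small changes may have been missed. The cause of these shifts was not tested.

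Whether same-numbered arrays belong together is not stated, and the correlations given above do not settle it. With the replicate number as a block the counts were 15, 24, 19, 13, 1, 0 and 0 over the 7 intervals in order of time, 6 for Day 0.25 over Day -1, 5 for Day 5 over Day 2, 22 for Day 5 over Day -1 and 32 for the F test.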

Other observations

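Genes of coat and vesicle transport between the ER and the Golgi, the next step for folded proteins, were counted as well. Of 29 tested, 12 rose and 2 fell on Day 0.25 relative to Day 0, none rose and 6 fell on Day 1 relative to Day 0.25, and 4 rose and none fell on Day 2 relative to Day 1. The shares of all probe sets were 22.4% higher and 20.9% lower, 11.6% higher and 15.4% lower, and 19% higher and 17.3% lower in these 3 intervals, and the 4 of 29, 13.8%, lay below the 19%. Golgb1, a large tether of the Golgi, averaged 215 ± 36.0 on Day 2 and 110.4 ± 22.4 on Day 1 (SD, n = 3 each, log2 fold change 0.97 ± 0.19, adjusted p = 0.0075 by limma). Sec16a, which marks the sites where vesicles leave the ER, averaged 584 ± 153 on Day 2 and 296 ± 41.7 on Day 1 (SD, n = 3 each, log2 fold change 0.95 ± 0.21, adjusted p = 0.012 by limma). Of 6 other membrane-bound factors and their proteases, Creb3l2 was the 1 that rose on Day 2 relative to Day 1 (log2 fold change 0.64 ± 0.19, adjusted p = 0.0347 by limma).

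The 35 genes had 86 probe sets, of which 70 were tested, and 18 genes had several. Derl2 was the 1 gene whose probe sets were called in opposite directions, on Day 5 relative to Day -1 (log2 fold changes of -0.89 and 0.51). Its dimmer probe set was also higher on Day 2 than on Day 1, by 0.72 on the log2 scale. The dimmer probe set of Edem1 had a log2 fold change of -1.91 on Day 5 relative to Day -1, beside -0.52 for the one described above.

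Among the 3 arrays of Day 0.25, replicate 3 was the highest for 17 of the 34 genes, beside 40% of all probe sets tested, and replicate 2 was the lowest for 18, beside 47.7%. The part of these positions in the results of Day 0.25 was not tested.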
